A study of Mus musculus with 12 samples.

Results

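The mitosis and cytokinesis genes are 51 mouse genes whose products carry a dividing cell from entry into mitosis to the separation of the daughter cells. They were chosen by name, with earlier results of these data known. Of the 51, 50 were measured, out of 18193 genes with a probe set of their own. The cyclin B1 gene, Ccnb1, was not analysed here because no probe set carried its symbol alone. Where a gene had several probe sets (groups of short probes for a transcript), the probe set with the highest mean over all arrays stood for it.

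Expression was measured on 12 Affymetrix mouse genome arrays. RNA came from the superior cervical ganglion (SCG), which holds sympathetic neurons of the neck with their glia, of CD1 mice labelled as 21 days old. The 3 groups, of 4 biological replicates each, were SCG cells cultured in porous 3D polystyrene scaffolds (3D cultures), SCG cells cultured on a flat 2D surface labelled as a polystyrene Petri dish (2D cultures), and freshly dissected SCG tissue (tissue), which stood in for the in vivo state. According to the methods, ganglia of neonatal mice were digested with collagenase and cells from 2 ganglia on average were plated per collagen-coated dish or scaffold. The medium held serum and nerve growth factor in both cultures. Cultures were taken after 5 days. RNA came from all cells of a dish, scaffold or ganglion, so fewer cells of a type and less RNA per cell cannot be told apart in these data. Values are log2 levels, so a difference of 1 is a 2-fold change, and levels of different probe sets are not comparable with each other.

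Cells duplicate their DNA in S phase and divide it in mitosis. Cyclin-dependent kinase 1 with its cyclins starts mitosis, condensin and topoisomerase compact the chromosomes, kinetochores fasten them to spindle microtubules, and a checkpoint holds the cell until every chromosome is attached. The anaphase-promoting complex (APC/C) then marks securin and cyclins for destruction, the sister chromatids part, and a ring of actin and myosin pinches the cell apart in cytokinesis. Transcripts of these genes accumulate in G2 phase and mitosis and are low in resting cells. Sympathetic neurons have left the cell cycle after birth, whereas the glia, fibroblasts and other cells of a ganglion can still divide.

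Transcripts of most mitosis and cytokinesis genes were far more abundant in both cultures than in tissue. By limma's moderated test at an adjusted p under 0.05 (Benjamini-Hochberg, all probe sets), 45 of 50 members were higher in 3D cultures than in tissue, where 20.1% of all genes were higher, and 0 were lower (15.5% of all genes). The same 45 members were higher in 2D cultures than in tissue, where 14.3% of all genes were higher, and 0 were lower (9.87% of all genes). The median log2 difference of the 50 members was 2.51 (5.70-fold) for 3D cultures minus tissue and 2.48 (5.56-fold) for 2D cultures minus tissue, while the median of all genes was -0.03 in both comparisons. Both comparisons use the same tissue arrays. Of the members that passed, 44 were at least 2-fold higher in 3D cultures than in tissue and 45 in 2D cultures than in tissue, against 12.4% and 9.93% of all genes. A difference of at least 8-fold was reached by 18 members in 3D cultures and 19 in 2D cultures, against 1.02% and 0.792% of all genes. All 3D arrays lay above all tissue arrays for 45 members (24.1% of all genes), and all 2D arrays above all tissue arrays for 44 (18.5%). For 44 of 50 members all 8 culture arrays lay above all 4 tissue arrays, as they did for 17.0% of all genes.

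**Figure D1:**
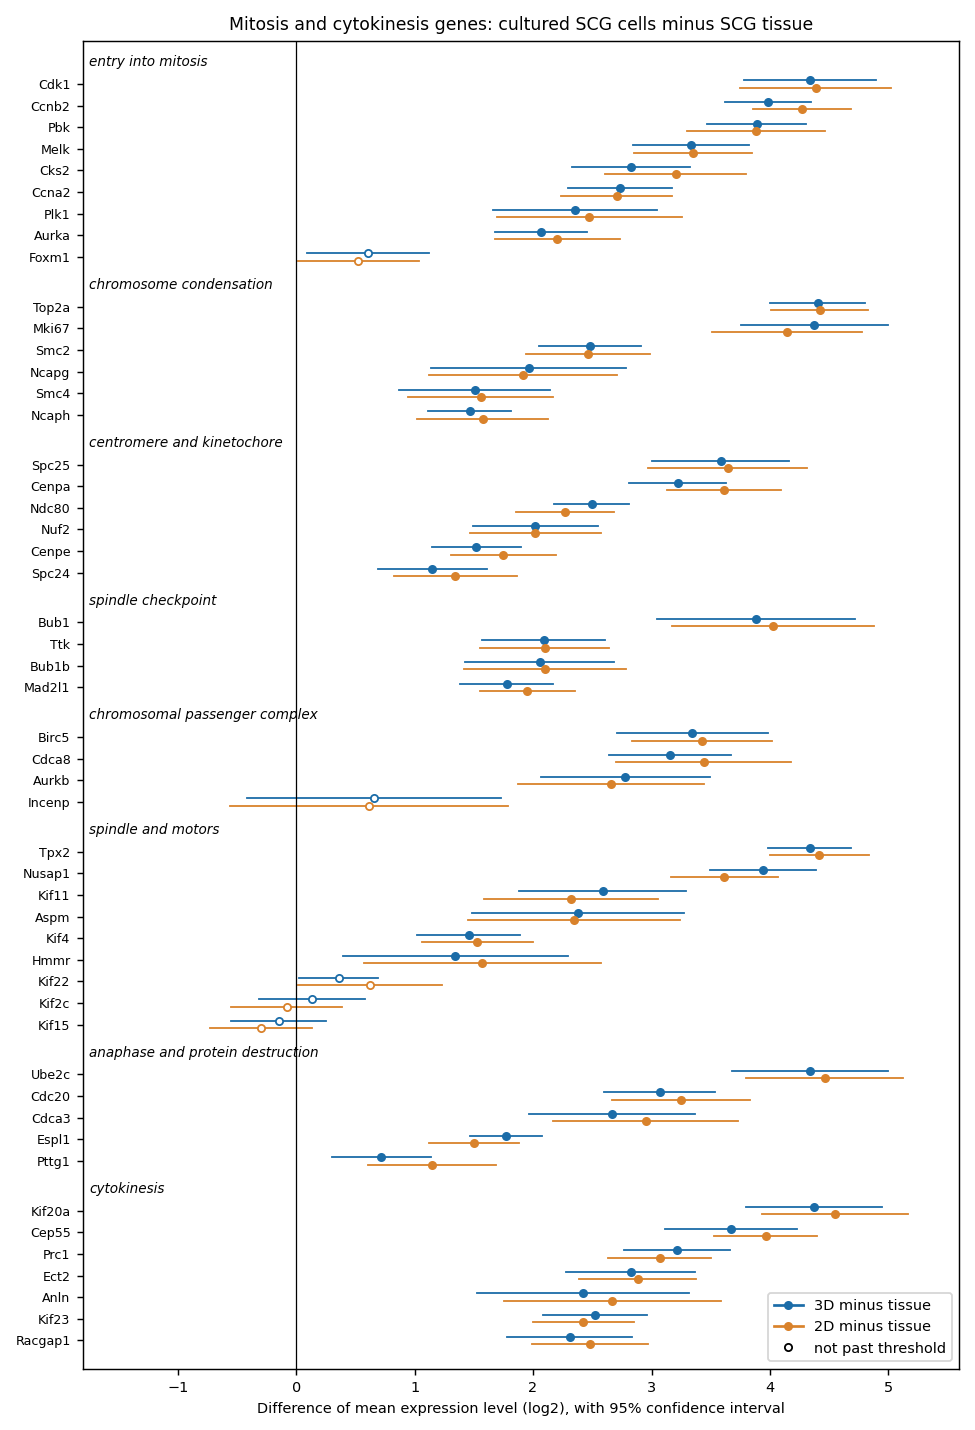
Log2 differences of 3D cultures minus tissue (blue) and 2D cultures minus tissue (orange) for the 50 measured members, grouped by role, with 95% confidence intervals (n = 4 arrays per group); open points did not pass the adjusted p threshold of 0.05. The differences run up to 4.41 for 3D cultures and 4.55 for 2D cultures, and the 5 members with open points are Foxm1, Incenp, Kif15, Kif22 and Kif2c.

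Many mitosis genes are bound at their promoters by MuvB, a protein complex that represses them in resting cells together with the pocket proteins and activates them in G2 phase together with B-Myb and FoxM1. MuvB recognises the cell cycle genes homology region, read here as TTTGAA, and the factor NF-Y recognises CCAAT. Promoter sequence of RefSeq (build GRCm38.p6, 250 bases before and 50 after each start of transcription) was matched for 41 of the 50 measured members, with 44 windows. On either strand, TTTGAA was present in 34 of the 44 windows (77.3%), against 17.9% of all 32851 windows, and CCAAT in 31 (70.5%), against 37.4%. Within 50 bases on each side of the start, 32 windows (72.7%) held TTTGAA, against 4.94% of all windows. Both motifs were present in 28 windows (63.6%), against 6.95%, and 20 windows (45.5%) held at least 2 copies of CCAAT, against 11.7%. Among the windows of the 59 further mitosis genes 49.1% held TTTGAA, among those of the DNA replication and S phase genes 10.5%, and among those of the APC/C genes 11.1%. CCAAT was present in 61.8%, 57.9% and 38.9% of the windows of these lists, and at least 2 copies in 34.5%, 34.2% and 11.1%. These matches describe the sequence and are not evidence of binding.

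The 130 bases before the start are printed for 9 members, chosen after their values were seen, to show the motifs beside the largest changes among members with a matched promoter (Top2a, Cdk1, Ube2c), in genes of the spindle and of chromatid separation (Kif11, Cdc20, Espl1), in a member that did not pass by any probe set (Kif15), and in members that were higher in culture with neither motif in the window (Nusap1, Birc5). Each is written 5′ to 3′ in the direction of the gene, and capitals mark TTTGAA or its reverse complement TTCAAA, and CCAAT or its reverse complement ATTGG.
Top2a, chr11:99024190-99024319, minus strand: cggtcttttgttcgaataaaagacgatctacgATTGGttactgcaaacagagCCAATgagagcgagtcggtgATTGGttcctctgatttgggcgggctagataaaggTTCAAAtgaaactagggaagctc
Cdk1, chr10:69352913-69353042, minus strand: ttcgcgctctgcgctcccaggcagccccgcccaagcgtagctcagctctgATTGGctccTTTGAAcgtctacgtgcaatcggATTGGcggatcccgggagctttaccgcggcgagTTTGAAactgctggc
Ube2c, chr2:164769799-164769928, plus strand: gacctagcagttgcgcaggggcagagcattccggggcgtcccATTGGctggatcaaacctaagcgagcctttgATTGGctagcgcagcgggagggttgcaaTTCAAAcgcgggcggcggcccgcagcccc
Kif11, chr19:37376252-37376381, plus strand: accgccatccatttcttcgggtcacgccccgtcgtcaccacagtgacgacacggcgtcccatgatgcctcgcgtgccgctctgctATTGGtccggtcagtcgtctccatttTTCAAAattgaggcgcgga
Cdc20, chr4:118437344-118437473, minus strand: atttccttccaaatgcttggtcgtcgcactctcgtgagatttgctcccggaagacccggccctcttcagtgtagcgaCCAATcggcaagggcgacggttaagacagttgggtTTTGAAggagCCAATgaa
Espl1, chr15:102296163-102296292, plus strand: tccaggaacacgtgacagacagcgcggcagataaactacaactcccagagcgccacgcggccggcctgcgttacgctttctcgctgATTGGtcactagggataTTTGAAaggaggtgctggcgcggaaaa
Kif15, chr9:122950951-122951080, plus strand: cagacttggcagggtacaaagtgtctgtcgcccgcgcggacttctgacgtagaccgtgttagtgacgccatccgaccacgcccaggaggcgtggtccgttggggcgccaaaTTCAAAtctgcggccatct
Nusap1, chr2:119618168-119618297, plus strand: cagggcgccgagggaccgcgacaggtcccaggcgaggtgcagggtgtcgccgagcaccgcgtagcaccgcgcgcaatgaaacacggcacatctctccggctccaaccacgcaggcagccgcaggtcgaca
Birc5, chr11:117849107-117849236, plus strand: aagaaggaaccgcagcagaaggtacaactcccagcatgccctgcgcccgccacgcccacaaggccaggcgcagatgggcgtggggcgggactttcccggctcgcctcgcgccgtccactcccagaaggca

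The first base of the TTTGAA match nearest the start lay 15 bases before it in Cdk1, 18 in Cdc20, 19 in Kif11 and Kif15, 23 in Top2a, 27 in Espl1 and 29 in Ube2c. CCAAT was also present in the printed stretch of all of these but Kif15, 3 times in Top2a, and the motifs did not overlap. The 31 members with TTTGAA in a window had median log2 differences of 2.50 (3D cultures minus tissue) and 2.48 (2D cultures minus tissue), and the 10 without it 2.42 and 2.61. The 7 members with neither motif were Birc5, Mad2l1, Melk, Ncaph, Nuf2, Nusap1 and Pttg1, and all 7 were higher in both cultures, with medians of 2.02 and 2.02.

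**Figure D2:**
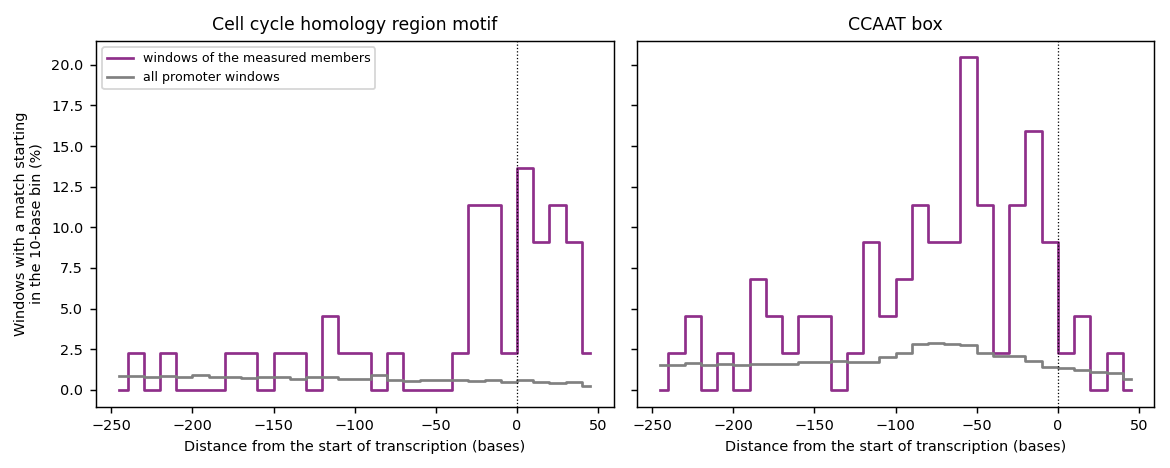
Share of promoter windows with a match starting in each 10-base bin, for 44 windows of the measured members (purple) and all 32851 windows (grey), by distance from the start of transcription in bases, for the cell cycle genes homology region motif (left) and the CCAAT box (right). The homology region motif peaks within 50 bases of the start, where 72.7% of member windows hold it, and CCAAT peaks about 50 bases before the start.

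In the group of genes for entry into mitosis, 8 of 9 members were higher in both cultures, with median log2 differences of 2.83 (3D cultures minus tissue) and 3.20 (2D cultures minus tissue). Cdk1, the kinase that drives cells into mitosis, had log2 levels of 10.45, 10.17, 10.15 and 10.24 in 3D cultures, 10.20, 9.87, 10.49 and 10.65 in 2D cultures and 6.24, 6.31, 5.16 and 5.96 in tissue. Every culture array exceeded every tissue array by over 3 log2 units, more than the spread within any group. The log2 difference was 4.34 ± 0.25 for 3D cultures minus tissue (SE, 20.2-fold, adjusted p = 9.7e-06) and 4.39 ± 0.28 for 2D cultures minus tissue (20.9-fold, adjusted p = 6.17e-05). The mitotic cyclins moved with their kinase: Ccnb2 was 3.99 and 4.27 higher on the log2 scale in 3D and 2D cultures than in tissue. Ccna2, whose cyclin acts from S phase to early mitosis, was 2.74 and 2.71 higher. Cks2, a small subunit that binds the kinase, was 2.83 and 3.20 higher. The mitotic kinases Plk1 and Aurka were between 2.07 and 2.48 higher. Melk and Pbk, kinase genes that dividing cells express, were 3.34 and 3.89 higher in 3D cultures than in tissue and 3.35 and 3.88 higher in 2D cultures than in tissue.

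The member of this group that did not pass was Foxm1, which codes for a transcription factor that switches on genes of G2 phase and mitosis. Its brightest probe set had log2 levels of 8.61, 8.82, 8.89 and 8.53 in 3D cultures, 8.58, 8.54, 8.72 and 8.69 in 2D cultures and 7.85, 8.36, 8.62 and 7.60 in tissue. Tissue replicate 3, at 8.62, lay within the range of the cultures, and the other tissue arrays lay below every culture array. The log2 difference was 0.61 ± 0.23 for 3D cultures minus tissue (SE, adjusted p = 0.0694) and 0.53 ± 0.23 for 2D cultures minus tissue (adjusted p = 0.118). It passed in both comparisons when tissue replicate 3 was left out (0.78, adjusted p = 0.0131, and 0.70, adjusted p = 0.0326). Of its 3 other probe sets, 2 were higher in both cultures, by 1.37 and 1.27 on the log2 scale in 3D cultures and by 1.35 and 1.5 in 2D cultures.

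All 6 genes for chromosome condensation were higher in both cultures than in tissue. Top2a, the topoisomerase that untangles DNA before chromosomes part and whose promoter held TTCAAA and 3 CCAAT boxes, had log2 levels of 10.23, 9.99, 9.72 and 9.95 in 3D cultures, 10.17, 9.78, 10.13 and 9.87 in 2D cultures and 5.91, 5.68, 5.32 and 5.36 in tissue. Tissue lay more than 3 log2 units below the lowest culture array. The log2 difference was 4.41 ± 0.18 for 3D cultures minus tissue (SE, 21.2-fold, adjusted p = 2e-06) and 4.42 ± 0.18 for 2D cultures minus tissue (21.4-fold, adjusted p = 1.11e-05). Mki67, whose protein Ki-67 coats mitotic chromosomes and is the usual marker of cycling cells, was 4.38 higher in 3D cultures and 4.15 higher in 2D cultures. The condensin genes, whose products fold chromosomes into compact rods, differed less from tissue by their brightest probe sets. Smc2, a core ATPase of condensin, was 2.48 and 2.47 higher in 3D and 2D cultures. Its partner Smc4 was 1.51 and 1.56 higher (1.08 and 1.13 after cyclic loess, adjusted p = 0.0696 and 0.0691). Dimmer Smc4 probe sets were 2.355 and 2.79 higher in 3D cultures and 2.195 and 2.435 higher in 2D cultures. The condensin I subunit gene Ncapg was 1.96 and 1.92 higher, and by its other probe set 3.49 and 3.635 higher. Ncaph, the subunit that bridges the core ATPases, had the smallest mean difference over both comparisons in this group, with log2 levels of 9.97, 9.79, 9.79 and 9.67 in 3D cultures, 9.75, 9.44, 10.54 and 9.92 in 2D cultures and 8.07, 8.43, 8.64 and 8.22 in tissue. The arrays still did not overlap, and the log2 difference was 1.47 ± 0.15 for 3D cultures minus tissue (SE, adjusted p = 0.000232) and 1.57 ± 0.24 for 2D cultures minus tissue (adjusted p = 0.00344). The other Ncaph probe set was 2.06 and 2.03 higher in 3D and 2D cultures.

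At the centromere and kinetochore, 6 of 6 members were higher in both cultures. Cenpa, the histone H3 variant that marks the centromere, was 3.22 higher in 3D cultures and 3.61 higher in 2D cultures. Cenpe, a kinesin that carries chromosomes to the spindle equator, was 1.52 and 1.75 higher. The other members, Ndc80, Nuf2, Spc24 and Spc25, encode the 4 subunits of the NDC80 complex, the clamp that holds a microtubule end. Spc25 changed most, with log2 levels of 9.82, 9.56, 9.61 and 9.55 in 3D cultures, 9.82, 9.15, 9.99 and 9.82 in 2D cultures and 6.16, 5.82, 6.77 and 5.46 in tissue. Its log2 difference was 3.58 ± 0.26 for 3D cultures minus tissue (SE, 12-fold, adjusted p = 3.14e-05) and 3.64 ± 0.30 for 2D cultures minus tissue (12.5-fold, adjusted p = 0.000168). Its direct partner Spc24 changed least, with log2 levels of 7.09, 6.99, 6.98 and 7.09 in 3D cultures, 7.32, 6.88, 7.37 and 7.36 in 2D cultures and 5.35, 6.07, 6.34 and 5.80 in tissue. All culture arrays of Spc24 were above those of tissue, and the log2 difference was 1.15 ± 0.20 for 3D cultures minus tissue (SE, adjusted p = 0.00315) and 1.34 ± 0.23 for 2D cultures minus tissue (adjusted p = 0.00526). Ndc80 and Nuf2 lay between them, at 2.50 and 2.02 for 3D cultures minus tissue and 2.27 and 2.02 for 2D cultures minus tissue.

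The 4 genes of the spindle checkpoint, which delays anaphase until all kinetochores are attached, were all higher in both cultures. The checkpoint kinase gene Bub1 had log2 levels of 9.44, 8.83, 8.63 and 8.88 in 3D cultures, 9.04, 8.61, 9.50 and 9.21 in 2D cultures and 4.62, 4.73, 6.25 and 4.65 in tissue. Tissue replicate 3 stood apart from the other tissue arrays but remained below every culture array. The log2 difference was 3.88 ± 0.37 for 3D cultures minus tissue (SE, 14.7-fold, adjusted p = 0.000136) and 4.03 ± 0.38 for 2D cultures minus tissue (16.3-fold, adjusted p = 0.000309). Mad2l1, whose product Mad2 inhibits the APC/C activator, had log2 levels of 10.26, 9.82, 9.77 and 9.90 in 3D cultures, 10.30, 9.83, 10.11 and 10.20 in 2D cultures and 8.14, 7.91, 8.51 and 8.08 in tissue. Cultures and tissue did not overlap. It was 1.78 ± 0.17 higher on the log2 scale in 3D cultures (SE, adjusted p = 0.000155) and 1.95 ± 0.18 higher in 2D cultures (adjusted p = 0.000269). Bub1b, which codes for BubR1, and the kinase gene Ttk were each between 2.06 and 2.10 higher.

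In the chromosomal passenger complex, which corrects faulty attachments and then guides cytokinesis, 3 of 4 members were higher in both cultures. Birc5, which codes for survivin, had log2 levels of 9.74, 8.88, 8.83 and 9.20 in 3D cultures, 9.34, 8.78, 9.40 and 9.46 in 2D cultures and 5.32, 6.43, 5.94 and 5.58 in tissue. No tissue array reached the cultures, and the log2 difference was 3.35 ± 0.28 for 3D cultures minus tissue (SE, 10.2-fold, adjusted p = 7.03e-05) and 3.43 ± 0.26 for 2D cultures minus tissue (10.8-fold, adjusted p = 0.000119). Cdca8, which codes for borealin, was 3.15 and 3.44 higher in 3D and 2D cultures. The kinase gene Aurkb was 2.78 and 2.66 higher. Incenp, the scaffold of the complex, had log2 levels of 10.41, 10.07, 10.06 and 10.08 in 3D cultures, 9.86, 9.55, 10.77 and 10.27 in 2D cultures and 8.67, 9.91, 10.89 and 8.52 in tissue by its brightest probe set. Tissue replicate 3 gave the highest level of all 12 arrays and tissue replicate 2 lay among the cultures, while the other tissue arrays were below all cultures. The log2 difference of 0.66 ± 0.47 for 3D cultures minus tissue (SE, adjusted p = 0.295) and of 0.62 ± 0.52 for 2D cultures minus tissue (adjusted p = 0.384) did not pass. Without tissue replicate 3 the 3D comparison passed (1.12, adjusted p = 0.0224), and the next brightest Incenp probe set was 1.80 ± 0.21 higher in 3D cultures and 1.65 ± 0.22 higher in 2D cultures (SE, adjusted p = 0.000375 and 0.00188).

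**Figure D3:**
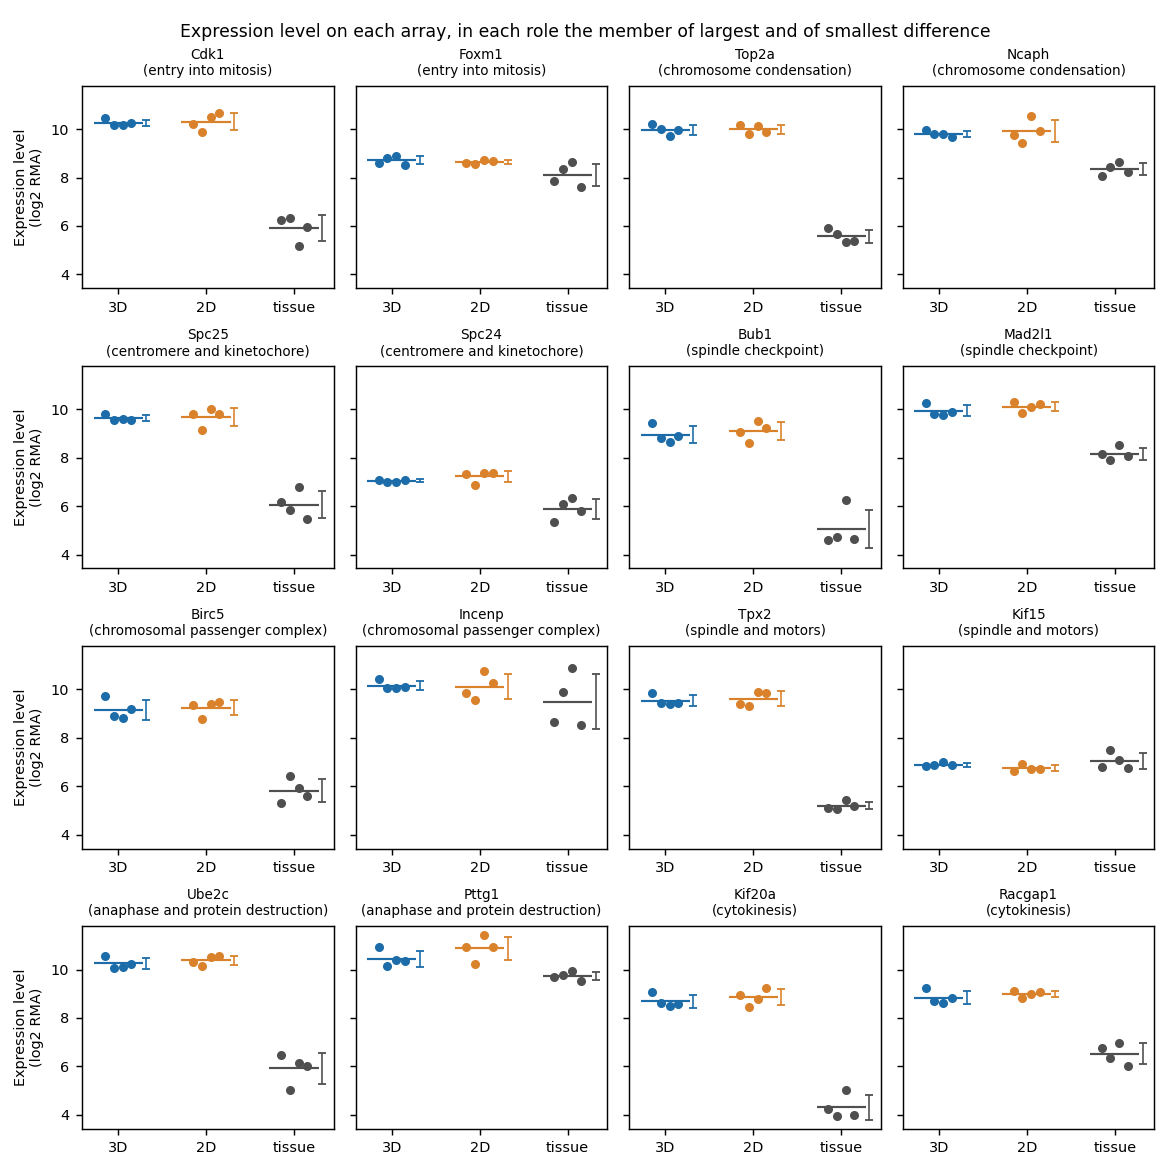
Log2 RMA expression level on each array (points), with group means (lines) and SD (bars), for the member with the largest and the member with the smallest difference in each of the 8 roles, in 3D cultures (blue), 2D cultures (orange) and tissue (grey), n = 4 each. Culture and tissue points are apart in 13 of the 16 panels, and overlap for Foxm1, Incenp and Kif15.

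The spindle and motor genes had the widest range of the 8 role groups, with 6 of 9 higher in both cultures and log2 differences between -0.15 and 4.34 for 3D cultures minus tissue and between -0.30 and 4.42 for 2D cultures minus tissue. Tpx2, which codes for an activator of Aurora A that seeds spindle microtubules, had log2 levels of 9.87, 9.43, 9.38 and 9.45 in 3D cultures, 9.39, 9.31, 9.91 and 9.85 in 2D cultures and 5.10, 5.08, 5.42 and 5.19 in tissue. The groups were separated by close to 4 log2 units, and the difference was 4.34 ± 0.15 for 3D cultures minus tissue (SE, 20.2-fold, adjusted p = 1.47e-06) and 4.42 ± 0.18 for 2D cultures minus tissue (21.4-fold, adjusted p = 1.11e-05). Nusap1, a microtubule bundling protein gene, was 3.94 and 3.62 higher in 3D and 2D cultures. Kif11, the motor that pushes the spindle poles apart, was 2.59 and 2.32 higher. Aspm, a spindle pole gene, was 2.38 and 2.35 higher. Kif4, a kinesin that binds chromosomes, was 1.46 and 1.53 higher.

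Hmmr, which codes for a spindle assembly protein that also binds hyaluronan, passed in both comparisons by a small margin on its brightest probe set. It had log2 levels of 9.50, 9.29, 9.22 and 9.09 in 3D cultures, 9.44, 9.03, 9.83 and 9.71 in 2D cultures and 7.04, 8.28, 9.16 and 7.25 in tissue. Tissue replicate 3 overlapped both cultures. It was 1.34 ± 0.42 higher on the log2 scale in 3D cultures (SE, adjusted p = 0.0375) and 1.57 ± 0.44 higher in 2D cultures (adjusted p = 0.0351). Leaving out any single array other than tissue replicate 3 ended the call it entered, with adjusted p of 0.0627 to 0.0931 for 3D cultures and 0.0574 to 0.0873 for 2D cultures. Without tissue replicates 2 and 3 both calls held, with log2 differences of 2.13 (adjusted p = 1.51e-05) and 2.36 (adjusted p = 0.00215). Dimmer Hmmr probe sets were 1.525, 1.72 and 1.935 higher in 3D cultures (adjusted p = 0.000674, 0.00218 and 0.000506). For 2D cultures the same probe sets were 1.625, 1.74 and 1.625 higher (adjusted p = 0.00145, 0.00537 and 0.00792), and none of these overlapped tissue. The dimmest did not pass, at 0.295 and 0.29 (adjusted p = 0.113 and 0.157).

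The kinesin genes Kif15, Kif22 and Kif2c did not pass by their brightest probe sets. Kif15, a motor that can help Kif11 to hold the poles apart, had log2 levels of 6.82, 6.89, 7.01 and 6.86 in 3D cultures, 6.62, 6.93, 6.70 and 6.73 in 2D cultures and 6.80, 7.5, 7.10 and 6.77 in tissue. The groups overlapped, and the log2 difference was -0.15 ± 0.18 for 3D cultures minus tissue (SE, adjusted p = 0.529) and -0.30 ± 0.19 for 2D cultures minus tissue (adjusted p = 0.259). Kif15 has no other probe set, and its printed promoter held TTCAAA without CCAAT.

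Kif22, a kinesin that pushes chromosome arms outwards, had log2 levels of 11.78, 11.39, 11.49 and 11.54 in 3D cultures, 11.83, 11.45, 12.60 and 11.38 in 2D cultures and 10.95, 11.30, 11.38 and 11.14 in tissue. The 3D arrays were all above tissue, by little, and 2D replicate 4 was level with tissue replicate 3. The log2 difference was 0.36 ± 0.15 for 3D cultures minus tissue (SE, adjusted p = 0.0897; 0.42 and adjusted p = 0.0409 without tissue replicate 3) and 0.62 ± 0.27 for 2D cultures minus tissue (adjusted p = 0.118). Kif2c, a kinesin that shortens microtubules at kinetochores, had log2 levels of 7.59, 7.42, 7.28 and 7.39 in 3D cultures, 7.34, 7.33, 7.03 and 7.13 in 2D cultures and 7.0, 7.36, 7.81 and 6.99 in tissue. Cultures and tissue overlapped, and the log2 difference was 0.13 ± 0.20 for 3D cultures minus tissue (SE, adjusted p = 0.62) and -0.08 ± 0.21 for 2D cultures minus tissue (adjusted p = 0.78).

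Other probe sets of the same kinesin genes gave large differences. The dimmer Kif22 probe sets were 2.35 ± 0.24 and 1.86 ± 0.16 higher in 3D cultures than in tissue and 2.66 ± 0.37 and 2.03 ± 0.18 higher in 2D cultures than in tissue (SE, log2). The next Kif2c probe set by mean level was 3.12 ± 0.26 higher in 3D cultures and 3.40 ± 0.35 higher in 2D cultures, and another was 2.05 ± 0.22 and 1.77 ± 0.26 higher. Over the 33 members with several probe sets there were 63 further probe sets. Of these, 38 were higher in 3D cultures than in tissue, 36 were higher in 2D cultures than in tissue and 0 were lower. By their brightest probe sets, 20.1% and 14.3% of all genes were higher. Of the 63, 24 had a mean log2 level under 6 in every group, and 19 of these 24 did not pass for 3D cultures and 21 for 2D cultures. Some further probe sets had differences of the opposite sign that did not pass. A Tpx2 probe set was at -1.07 (adjusted p = 0.0571) for 3D cultures minus tissue and -1.17 (adjusted p = 0.0622) for 2D cultures minus tissue. Another Tpx2 probe set was at -1.135 and -1.18 (adjusted p = 0.0726 and 0.0822). A Cdca3 probe set was at -0.87 (adjusted p = 0.0584) and -0.98 (adjusted p = 0.0506), and another at -0.77 and -0.845 (adjusted p = 0.0621 and 0.0593). On these Tpx2 and Cdca3 probe sets every tissue array lay above every culture array. A Cenpa probe set was at -0.835 and -1.115 (adjusted p = 0.133 and 0.086), with every tissue array above every 2D array. Kif15 was the only member with no probe set that was higher in a culture. Several probe sets give a gene more chances to pass, and the same count over all genes was not made.

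**Figure D4:**
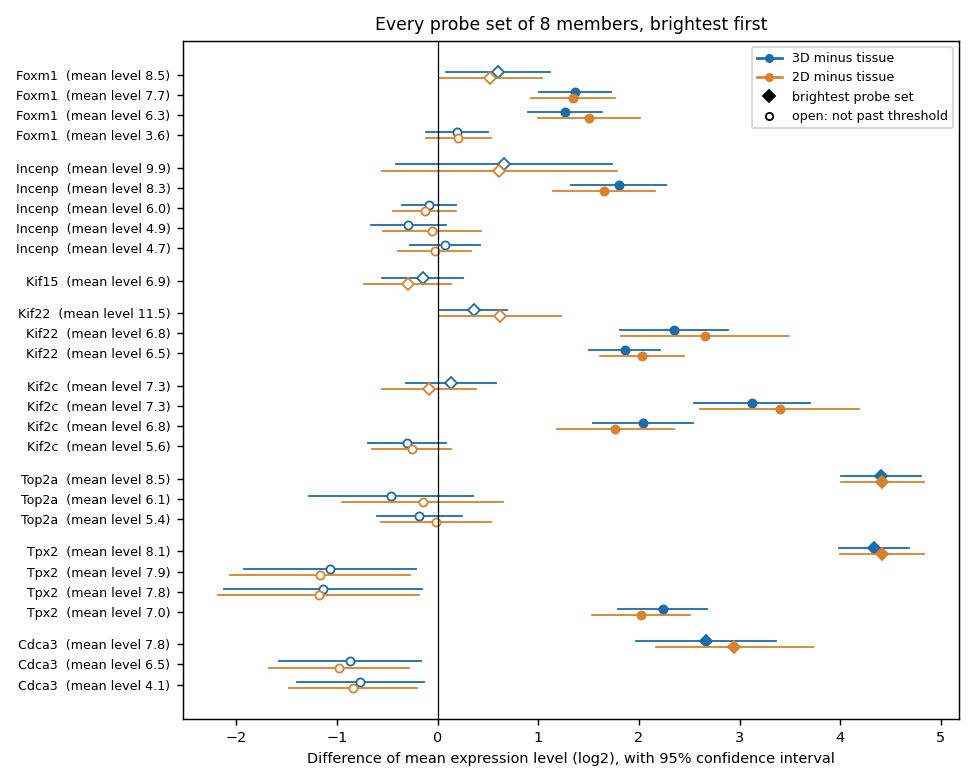
Log2 differences of 3D cultures minus tissue (blue) and 2D cultures minus tissue (orange), with 95% confidence intervals, for every probe set of 8 members; diamonds mark the brightest probe set, which stood for the gene, and open symbols did not pass. Top2a, Tpx2 and Cdca3 were added after their values were seen, and their brightest probe sets lie at 2.67 to 4.42 while some of their dimmer ones lie below 0.

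The 5 genes for anaphase and protein destruction were all higher in both cultures. Ube2c, the enzyme that hands ubiquitin to the APC/C, had log2 levels of 10.57, 10.08, 10.12 and 10.24 in 3D cultures, 10.32, 10.13, 10.53 and 10.54 in 2D cultures and 6.49, 5.03, 6.15 and 6.0 in tissue. Cultures were above tissue on every array, and the log2 difference was 4.34 ± 0.29 for 3D cultures minus tissue (SE, 20.2-fold, adjusted p = 2.24e-05) and 4.46 ± 0.29 for 2D cultures minus tissue (22-fold, adjusted p = 6.35e-05). Cdc20, the APC/C activator of mitosis, was 3.07 and 3.25 higher in 3D and 2D cultures. Cdca3, a cell division cycle associated gene, was 2.67 and 2.95 higher. Espl1, the separase that cuts the rings holding sister chromatids together, was 1.77 and 1.5 higher. By brightest probe sets, Pttg1, the securin that blocks separase until anaphase, showed the smallest difference of any member that passed. It had log2 levels of 10.92, 10.14, 10.38 and 10.36 in 3D cultures, 10.94, 10.24, 11.41 and 10.92 in 2D cultures and 9.68, 9.79, 9.92 and 9.54 in tissue. Its arrays did not overlap, and the log2 difference was 0.72 ± 0.18 for 3D cultures minus tissue (SE, adjusted p = 0.0171) and 1.15 ± 0.24 for 2D cultures minus tissue (adjusted p = 0.0117). After cyclic loess normalization Pttg1 no longer passed in either comparison (0.28, adjusted p = 0.457, and 0.71, adjusted p = 0.132). After centring it no longer passed for 3D cultures minus tissue (0.44, adjusted p = 0.149). A dimmer Pttg1 probe set was 2.41 ± 0.33 higher in 3D cultures and 2.835 ± 0.35 higher in 2D cultures (SE, adjusted p = 0.000929 and 0.00121). Another did not pass, at -0.005 and 0.125 (adjusted p = 0.974 and 0.49).

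All 7 cytokinesis genes were at least 2.31 log2 units higher in 3D cultures and 2.43 in 2D cultures. Kif20a, a kinesin of the central spindle between the parting chromosomes, had log2 levels of 9.06, 8.62, 8.48 and 8.57 in 3D cultures, 8.96, 8.45, 8.77 and 9.24 in 2D cultures and 4.23, 3.97, 5.04 and 3.99 in tissue. No tissue array came within 3 log2 units of a culture array, and the difference was 4.38 ± 0.25 for 3D cultures minus tissue (SE, 20.7-fold, adjusted p = 1.06e-05) and 4.55 ± 0.27 for 2D cultures minus tissue (23.4-fold, adjusted p = 4.19e-05). Racgap1, a subunit of centralspindlin, had log2 levels of 9.23, 8.68, 8.62 and 8.81 in 3D cultures, 9.11, 8.83, 9.0 and 9.08 in 2D cultures and 6.76, 6.34, 6.98 and 6.03 in tissue. Its groups were also apart, with 2.31 ± 0.23 for 3D cultures minus tissue (SE, adjusted p = 0.000181) and 2.48 ± 0.22 for 2D cultures minus tissue (adjusted p = 0.000224). Kif23, the motor subunit of centralspindlin, was 2.53 and 2.43 higher in 3D and 2D cultures. Prc1, which bundles the midzone microtubules, was 3.21 and 3.07 higher. Ect2, the exchange factor that activates RhoA at the cleavage site, was 2.82 and 2.88 higher. Anln, the anillin scaffold of the ring, was 2.42 and 2.67 higher. Cep55, needed for the final cut at the midbody, was 3.68 and 3.97 higher.

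Between 3D and 2D cultures, 0 of 50 members passed the adjusted p threshold by limma, against 0.0165% of all genes, and the arrays of the 2 cultures overlapped for every member by its brightest probe set, whereas 4.49% of all genes were higher and 2.87% lower without overlap. At an unadjusted p under 0.05, 2 of 50 members passed, against 13.1% of all genes, and the methods' t-test with Benjamini-Hochberg adjustment called 0. The log2 differences, 3D minus 2D, ran between -0.43 (Pttg1) and 0.33 (Nusap1) with a median of -0.06, and 32 were below 0. For 49 of 50 members the 95% confidence interval lay within a 2-fold change in either direction. The exception was Kif11, with an interval of -0.65 to 1.19, and differences smaller than these intervals could not be told from 0.

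Nusap1 had the smallest p of this comparison. Its log2 levels were 9.90, 9.51, 9.37 and 9.59 in 3D cultures, 9.44, 9.07, 9.42 and 9.14 in 2D cultures and 5.97, 5.88, 5.21 and 5.55 in tissue. The log2 difference, 3D minus 2D, was 0.33 ± 0.14 (SE, adjusted p = 0.414). Espl1 came next, with log2 levels of 9.08, 9.11, 9.11 and 9.29 in 3D cultures, 8.67, 8.69, 9.01 and 9.13 in 2D cultures and 7.19, 7.57, 7.26 and 7.48 in tissue. It differed by 0.27 ± 0.12 (adjusted p = 0.436). In both genes the lowest 3D arrays lay below the highest 2D array. Cks2 had log2 levels of 10.57, 10.27, 10.37 and 10.25 in 3D cultures, 10.59, 10.29, 11.02 and 11.06 in 2D cultures and 7.58, 7.66, 7.99 and 6.92 in tissue. It differed by -0.38 ± 0.18 (SE, adjusted p = 0.461). Cenpa had log2 levels of 9.46, 8.80, 9.0 and 9.03 in 3D cultures, 9.57, 8.91, 9.72 and 9.66 in 2D cultures and 5.90, 5.54, 6.07 and 5.90 in tissue. It differed by -0.39 ± 0.20 (SE, adjusted p = 0.507). For Cks2 and Cenpa, 2D replicate 2 fell among the 3D arrays and the other 2D arrays exceeded every 3D array. Kif2c, given above, differed by 0.21 ± 0.10 (SE, adjusted p = 0.473), and its next brightest probe set by -0.28 in the opposite direction. Of the 63 further probe sets of the members, 0 passed and 6 had no overlap between the cultures. Of these 6, 4 were higher and 2 lower in 3D cultures, near the 4.49% and 2.87% of all genes by their brightest probe sets. The other Cks2 probe set had log2 levels of 10.41, 10.17, 10.18 and 10.18 in 3D cultures and 10.58, 10.52, 10.68 and 10.87 in 2D cultures, a difference of -0.43 ± 0.10 (SE, adjusted p = 0.197). The other Nusap1 probe set had 5.39, 5.37, 5.25 and 4.99 in 3D cultures and 4.83, 4.91, 4.51 and 4.73 in 2D cultures, a difference of 0.51 ± 0.12 (SE, adjusted p = 0.201). Both ran in the direction of the gene's brightest probe set. The remaining probe sets without overlap were of Top2a (-0.315), Bub1 (0.17), Incenp (0.10) and Kif23 (0.24). That of Bub1 ran against its brightest probe set, which was at -0.145.

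Within each culture the members moved together from array to array. In 3D cultures, replicate 1 was the highest array for 46 of 50 members, against 27.1% of all genes, and the median deviation of the members from their 3D mean was 0.32 on the log2 scale. In 2D cultures, replicate 2 was the lowest array for 45 of 50 members, against 22.0% of all genes, with a median deviation of -0.40. The range over the 8 culture arrays had a median of 0.81 log2 units over the members. The genes of DNA replication and S phase shared the low 2D replicate 2, which was lowest for 37 of 43 of them, but not the high 3D replicate 1, which was highest for 15 of 43. A list of 59 further mitosis genes shared both, with 3D replicate 1 highest for 45 and 2D replicate 2 lowest for 47. The array 3D replicate 1 was also highest for 20 of 20 sympathetic neuron markers, with a median deviation of 0.49, and its part in the members' levels was not tested. In tissue, replicate 3 was the highest array for 31 of 50 members, against 34.6% of all genes. That array had a narrower spread of values than the others over all probe sets (SD 1.93, against 2.14 to 2.32 for other tissue arrays and 2.35 to 2.42 for culture arrays), and the part of that spread in its high member levels was not tested.

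**Figure D5:**
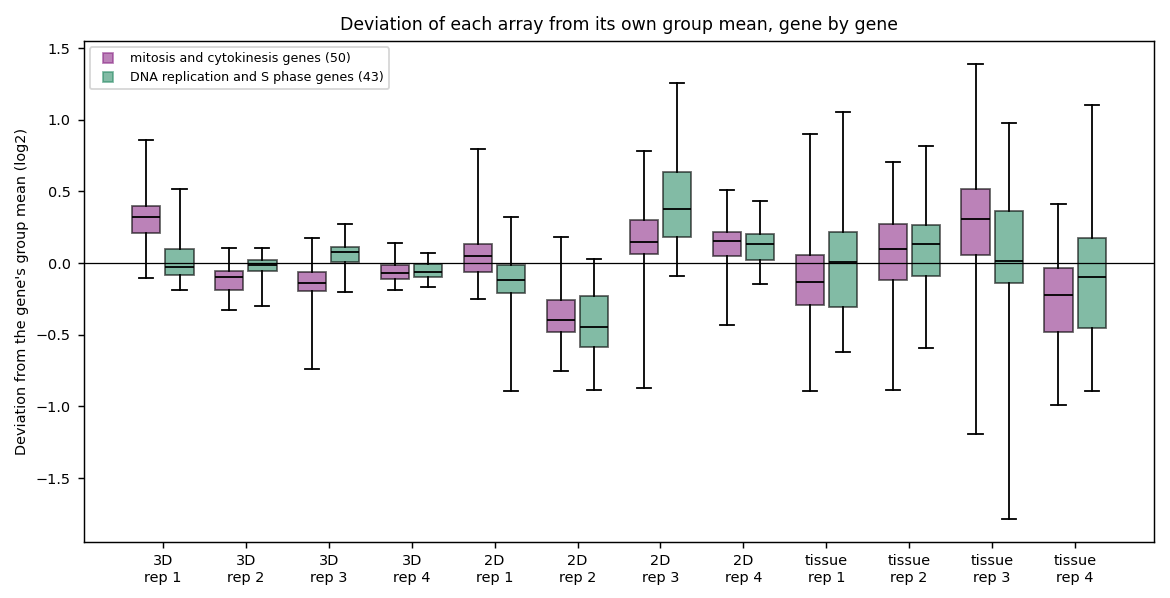
Deviation of each gene's log2 level from its own group mean on the 12 arrays, for the 50 mitosis and cytokinesis genes (purple) and 43 genes of DNA replication and S phase (green); boxes show the quartiles and median, whiskers the full range. The purple boxes have a median of 0.32 on 3D replicate 1 and -0.40 on 2D replicate 2, whereas the green box is at -0.03 on 3D replicate 1.

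Replication genes were higher in culture as well. The list of DNA replication and S phase held 43 measured genes. In 3D cultures 32 were higher than in tissue and 1 was lower, against 20.1% and 15.5% of all genes. In 2D cultures 28 were higher and 0 were lower, against 14.3% and 9.87%. The median log2 differences were 1.52 and 1.46 for 3D and 2D cultures minus tissue. Uhrf1, which keeps DNA methylation after replication, was 3.72 and 3.45 higher in 3D and 2D cultures, Pole2, a DNA polymerase epsilon subunit, 2.38 and 2.28 higher, and the thymidine kinase Tk1 2.68 and 2.76 higher. The cyclin E1 gene Ccne1 ran the other way, at -1.14 ± 0.29 for 3D cultures minus tissue (SE, adjusted p = 0.0158) and -0.92 ± 0.33 for 2D cultures minus tissue (adjusted p = 0.0741).

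The 59 further mitosis genes also moved mostly upward in culture. Compared with tissue, 45 were higher and 1 was lower in 3D cultures (20.1% and 15.5% of all genes). In 2D cultures 44 were higher and 0 were lower (14.3% and 9.87% of all genes). The median log2 differences were 1.49 and 1.56 for 3D and 2D cultures minus tissue. Ckap2, a spindle protein gene, was 3.20 and 3.20 higher in 3D and 2D cultures, Depdc1a 3.85 and 3.97 higher, and the kinetochore gene Cenpf 3.21 and 3.33 higher. In each comparison 9 of the 59 had a difference below 0, of which Cit, the citron kinase of the midbody, was the only gene to pass, at -0.80 ± 0.19 for 3D cultures minus tissue (SE, adjusted p = 0.0116) and -0.52 ± 0.25 for 2D cultures minus tissue (adjusted p = 0.152).

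Complexes that also serve cells outside mitosis had smaller median log2 differences. Of 16 measured APC/C subunits and partners, 5 were higher and 1 was lower in 3D cultures than in tissue. The shares of all genes were 20.1% and 15.5%. In 2D cultures 5 were higher and 0 were lower than in tissue, against 14.3% and 9.87% of all genes. Medians were 0.78 and 0.72 for 3D and 2D cultures. Fzr1, the APC/C activator outside mitosis, was 1.49 and 1.38 higher in 3D and 2D cultures, Anapc15 1.45 and 1.57 higher and Cdc16 1.49 and 1.53 higher. The subunit gene Anapc5 was at -0.57 ± 0.12 for 3D cultures minus tissue (SE, adjusted p = 0.00782) and -0.49 ± 0.16 for 2D cultures minus tissue (adjusted p = 0.0613). Cdc16 had log2 levels of 9.26, 7.56, 7.25 and 9.11 in tissue, where replicates 2 and 3 stood low. Without tissue replicates 2 and 3, 7 of the 16 were higher in 3D cultures but 2 in 2D cultures. Over all 18193 genes, 4483 and 2229 were then higher. The medians of the 16 were 0.27 and 0.17.

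Cohesin holds sister chromatids together from replication to anaphase. Of 10 measured genes for its subunits and regulators, 6 were higher and 1 was lower in 3D cultures than in tissue. The shares of all genes were 20.1% and 15.5%. In 2D cultures 1 was higher and 1 was lower than in tissue, near the 14.3% and 9.87% of all genes. Medians were 0.65 and 0.39 for 3D and 2D cultures. Nipbl, which loads cohesin, was 1.71 and 1.44 higher in 3D and 2D cultures, and the subunit gene Stag1 was 0.81 higher in 3D cultures, with 0.62 in 2D cultures (adjusted p = 0.0766). Pds5b, a regulator of cohesin release, was lower in both, at -0.42 ± 0.13 for 3D cultures minus tissue and -0.61 ± 0.13 for 2D cultures minus tissue (SE, adjusted p = 0.0325 and 0.0143). Without tissue replicates 2 and 3, cohesin counts were 9 higher in 3D cultures and 3 in 2D cultures, with 1 lower in each. Over all 18193 genes, 4483 and 2229 were then higher, and 4137 and 1839 lower. After centring 3 were higher and 1 was lower in 3D cultures, against 2627 and 4045 of all genes.

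Differences of the genes for MuvB and the factors listed with it ran in both directions. The list held 13 genes for MuvB subunits, B-Myb, E2F factors and pocket proteins. In 3D cultures 6 were higher and 2 were lower than in tissue, against 20.1% and 15.5% of all genes. In 2D cultures 4 were higher and 1 was lower than in tissue, against 14.3% and 9.87%. The counts of lower genes were near these shares in both cultures, and 4 of the 13 differences were below 0 in each comparison. Medians were 0.60 and 0.40 for 3D and 2D cultures. After centring the counts were 4 higher and 2 lower in 3D cultures and 3 higher and 2 lower in 2D cultures. Medians were then 0.33 and 0.11. All 18193 genes had 2627 higher and 4045 lower, and 1882 and 3021. After cyclic loess the counts were 4 higher and 2 lower, and 4 higher and 1 lower, with medians of 0.27 and 0.29. All genes then had 3406 higher and 3733 lower, and 2378 and 2608. Mybl2, which codes for B-Myb, was 0.93 ± 0.13 higher in 3D cultures and 1.0 ± 0.25 higher in 2D cultures (SE, adjusted p = 0.000806 and 0.022). The pocket protein gene Rbl1 was 2.13 and 2.05 higher and the E2F partner gene Tfdp1 1.49 and 1.28 higher. E2f5, which codes for a repressive E2F factor, was -1.55 ± 0.37 for 3D cultures minus tissue and -1.5 ± 0.38 for 2D cultures minus tissue (SE, adjusted p = 0.0128 and 0.0243). The MuvB subunit gene Lin52 was at -0.62 ± 0.19 and -0.58 ± 0.19 (adjusted p = 0.0335 and 0.059).

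The cultures and the tissue differed in other cell markers, whose part in the mitosis gene result was not tested. Beside each marker count stand the shares of all genes. These were 20.1% higher and 15.5% lower in 3D cultures than in tissue, and 14.3% and 9.87% in 2D cultures. Of 20 sympathetic neuron markers, 11 were lower and 0 were higher in 3D cultures than in tissue, where 15.5% of all genes were lower, and 5 were lower and 0 were higher in 2D cultures than in tissue, where 9.87% were. The count of lower neuron markers was 14 and 9 after centring and 16 and 9 after cyclic loess. It was 18 and 5 without tissue replicates 2 and 3. Of all 18193 genes, 4045 and 3021, 3733 and 2608, and 4137 and 1839 were lower in these settings. Their summed level on the linear scale was 46892 to 77904 in 3D cultures, 34558 to 101112 in 2D cultures and 65184 to 151178 in tissue. The sum of 34558 came from 2D replicate 4. That array was the lowest 2D array for 20 of 20 neuron markers, against 23.5% of all genes, with a median deviation of -1.05. Its part in the 2D counts of these lists was not tested. Th was -2.58 and -1.18, Dbh -0.28 and -0.05, and Ddc -3.96 and -2.56 on the log2 scale for 3D cultures minus tissue and 2D cultures minus tissue, of which Th passed in 3D and Ddc in both. Of 10 satellite glia and Schwann cell markers, 5 were higher in each culture, 2 were lower in 3D cultures and 1 was lower in 2D cultures, with summed levels of 36858 to 41639 in 3D cultures, 27157 to 35069 in 2D cultures and 13499 to 35206 in tissue. The glial genes Sox10, S100b and Fabp7 differed by 1.68, 0.79 and -0.79 for 3D cultures minus tissue and by 1.30, 0.26 and -0.72 for 2D cultures minus tissue, and Sox10 alone passed. The 10 fibroblast markers summed to 69442 to 78545 in 3D cultures, 55477 to 82908 in 2D cultures and 22102 to 72505 in tissue. Of them 2 were higher in each culture, 1 was lower in 3D cultures and 2 in 2D cultures, near the shares of all genes. They ran from -1.315 to 3.195 for 3D cultures minus tissue and from -2.73 to 3.08 for 2D cultures minus tissue. In each comparison 4 were below 0. The collagen genes Col1a1, Col1a2 and Col3a1, which stand first in the list, all lay above 0 and did not pass. They were at 2.25, 1.46 and 0.60 for 3D cultures minus tissue and 2.51, 1.47 and 0.53 for 2D cultures minus tissue. The median of the fibroblast list, 0.49 for 3D cultures minus tissue and 0.48 for 2D cultures minus tissue, turned to -0.18 and -0.20 without tissue replicates 2 and 3. Endothelial markers had 7 of 10 lower in each culture. Macrophage markers had 3 of 11 higher and 7 lower in 3D cultures. In 2D cultures they had 1 higher and 1 lower, near the shares of all genes. On 2D replicate 4 all 11 macrophage markers were highest of the 2D arrays, against 30.4% of all genes, with a median deviation of 1.42. After centring 5 were lower in 2D cultures, against 3021 of all 18193 genes. The 9 smooth muscle and pericyte markers had 2 higher and 2 lower in 3D cultures, near the shares of all genes. They had 3 higher and 2 lower in 2D cultures. The 11 skeletal muscle markers summed to 452 to 515 in 3D cultures, 448 to 517 in 2D cultures and 535 to 6468 in tissue, and tissue replicates 2, 3 and 4 had 6468, 3739 and 5775. The defining markers of the ganglion, Th and Dbh, were at log2 levels of at least 9.44 on all 12 arrays. The values have no zero that would mark an absent transcript. Without tissue replicates 2 and 3, 49 of 50 members were higher in 3D cultures than in tissue and 47 in 2D cultures than in tissue. Over all 18193 genes, 4483 and 2229 were then higher, against 3660 and 2597 with all arrays. Tissue replicate 4, with its muscle sum of 5775, stayed in.

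Rescaling did not turn the direction of any member that passed, while in 3D cultures minus tissue Kif22 (-0.092 after cyclic loess) and Kif2c (-0.145 after centring), which had not passed, changed sign. When each array was centred on its bright probe sets, the median of all genes moved to -0.31 in both comparisons, and the members' median was 2.24 for 3D cultures minus tissue and 2.19 for 2D cultures minus tissue, with 43 and 44 of 50 higher and 0 lower. Over all genes, 56.5% of the calls between 3D cultures and tissue were higher as deposited, 39.4% after centring and 47.7% after cyclic loess, and between 2D cultures and tissue 59.1%, 38.4% and 47.7%. After cyclic loess 42 of 50 members were higher in each culture and 0 were lower. Over all 18193 genes, 3406 were then higher in 3D cultures and 2378 in 2D cultures, and 2627 and 1882 after centring.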

How the data were processed

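Expression arrays were measured for 4 biological replicates each of 3D cultures, 2D cultures and freshly dissected SCG tissue. Per the labels and methods, the authors made the deposited log2 values by RMA (background adjustment, quantile normalization and summarization of probes) in Affymetrix Expression Console, with no version named. Such values hold no counts or detection calls, so precision rests on the number of arrays. Scanner data were not used here, and batches of extraction or scanning were not tested.

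After 64 control probe sets were left out, 45037 probe sets were tested by limma 3.58.1 (R 4.3.3, lmFit and eBayes, 8 arrays per comparison) with Benjamini-Hochberg adjustment, threshold 0.05. Of these, 34945 carried 1 gene symbol in the platform annotation, 932 several and 9160 none. Nothing in the labels says whether replicates shared animals, so p-values measure the spread between these arrays. The members and all lists were chosen with earlier results of these data known. Per-array values are given for the largest and the smallest mean culture difference in each role, for members not past the threshold and for the 5 smallest p between 3D and 2D, besides Hmmr, which was added after its values were seen. In each pathway list the 3 genes with the smallest adjusted p for 2D cultures minus tissue and genes called the other way are named, and in the cell marker lists those that stand first, with muscle, macrophage and endothelial markers by count. Promoter sequence came from RefSeq (GRCm38.p6). The fit was tested on simulated data. Alternatives were another scaling, array weights, prior, probe set rule, filter on dim probe sets, minimum fold, the methods' t-test, the replicate number as a block and leaving out arrays.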

Additional observations from a re-analysis of the deposited data

Results flagged for a closer look

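In 12 of 150 groups of 4 arrays, 1 array lay far from the other 3 by Dixon's test at its 95% critical value, where chance flags about 1 in 20 groups. In 8 of the 12, 3D replicate 1 was the high array of the 3D cultures. Its log2 level was 10.96 for Mki67, 8.42 for Cenpe, 8.88 for Nuf2, 10.41 for Incenp, 9.87 for Tpx2, 8.85 for Kif23, 10.25 for Anln and 9.90 for Cep55. For Espl1 it was 3D replicate 4 that stood high, at 9.29. In 2D cultures, replicate 2 stood low for Ccna2 (9.06) and Spc24 (6.88). In tissue, replicate 3 stood high for Bub1 (6.25). Among all 50 members, 3D replicate 1 was the highest 3D array for 46, 2D replicate 2 the lowest 2D array for 45 and tissue replicate 3 the highest tissue array for 31. Leaving out 3D replicate 1 or 2D replicate 2 ended a call for no member that passed except Hmmr.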

How the results depend on the processing

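Over all alternatives, 42 to 49 of 50 members were higher than tissue in 3D cultures and in 2D cultures (44 to 48 and 44 to 46 when 1 array was left out), 0 were lower, and 0 differed between 3D and 2D cultures. The mean of a gene's probe sets gave medians of 1.89 for 3D cultures minus tissue and 1.92 for 2D cultures minus tissue. By the probe set of highest SD the medians were 2.98 and 3.11. That SD was taken over the culture and tissue arrays together, so the rule favours probe sets with a large difference between cultures and tissue. The larger medians and the counts of higher members under this rule are therefore no separate test of the result. Among single members, Smc4 lost both calls after cyclic loess, and Pttg1 lost both after cyclic loess and that for 3D cultures after centring and with a minimum of 2-fold. Hmmr lost both calls without most single arrays, after centring (adjusted p = 0.0965 for 3D cultures and 0.0691 for 2D cultures), after cyclic loess (0.190 and 0.142) and by the methods' t-test with Benjamini-Hochberg adjustment (0.0964 and 0.0952). Cdca3 lost both calls when its probe sets were averaged (log2 difference 0.34 with adjusted p = 0.111 for 3D cultures, and 0.38 with adjusted p = 0.116 for 2D cultures).

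A change of sign occurred for Kif15, Kif22 and Kif2c. For 2D cultures minus tissue, Kif2c was 0.23 with array weights, 0.21 without tissue replicates 2 and 3, 1.21 with the mean of its probe sets, 3.40 by the probe set of highest SD, and between -0.18 and 0.091 when 1 array was left out. For 3D cultures minus tissue, Kif2c was -0.145 after centring on bright probe sets. For that comparison Kif15 was 0.035 with array weights, 0.11 without tissue replicates 2 and 3, and between -0.24 and 0.005 when 1 array was left out, and Kif22 was -0.092 after cyclic loess. For 3D minus 2D, Kif2c was -0.28 by the probe set of highest SD. In each case the cause was not tested.

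The replicate numbers of the labels were not taken to pair the arrays. Same-numbered deviations correlated at 0.407, 0.029, 0.151 and 0.152 between 3D and 2D cultures, at 0.349, -0.066, 0.208 and -0.067 between 2D cultures and tissue, and at 0.212, 0.013, 0.249 and 0.099 between 3D cultures and tissue. Different-numbered ones ran from -0.446 to 0.323, from -0.312 to 0.254 and from -0.281 to 0.137 in the same order. Whether the numbers pair the arrays was not settled by these values, and the labels name no shared animal or day. With the replicate block, 46 members were higher in 3D cultures than in tissue (Foxm1 added, adjusted p = 0.0378), 45 in 2D cultures than in tissue, and 0 differed between cultures. With 4 arrays per group, differences between the cultures well under 2-fold could not be settled.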
